A study of Homo sapiens with 20 samples.

Results

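The proteasome subunit genes were taken as the protein-coding genes of GENCODE release 44 whose name is PSM, a letter from A to G and a number. These are 48 of the 57536 genes to which transcripts in the files could be assigned. NGP cells, an established human neuroblastoma line, had been treated with 8 µM nutlin-3 in 10 samples (the nutlin group) or with ethanol in 10 samples (the vehicle group). No other agent or genetic change is named in the labels for either group, both groups are of this 1 line, and the duration of treatment is not given in the sources used here. Nutlin-3 occupies the p53 pocket of MDM2, so that p53 is no longer marked for degradation. The study's methods call the samples of a group biological replicates, so that p-values measure the spread between replicates of this 1 line.

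The proteasome is the protease that degrades most ubiquitin-tagged proteins in the cytosol and the nucleus. Its 20S core is a barrel of stacked α and β rings, in which PSMB5, PSMB6 and PSMB7 carry the active sites. The 19S particle caps the barrel, and its ATPases (PSMC genes) and non-ATPase subunits (PSMD genes) bind, unfold and thread the substrate. In immune cells, and in other cells under interferon, PSMB8, PSMB9 and PSMB10 take the place of PSMB5, PSMB6 and PSMB7, which makes the immunoproteasome and alters the peptides offered to MHC class I. Other caps, PSME1 with PSME2 (PA28αβ), PSME3 (PA28γ) and PSME4 (PA200), open the barrel without ATP. When the proteasome is inhibited, the transcription factor NFE2L1 raises subunit genes through antioxidant response elements.

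Promoter sequences are shown for members chosen by the size of their fall or by a motif match, with motifs that bear on both ways of regulation. They are RefSeq windows of GRCh38.p14, 300 bases each, from 250 bases before to 50 after a transcription start, and were found for 42 of the 48 members (51 windows). Capitals mark matches on either strand to the antioxidant response element core TGACNNNGC and to the interferon-stimulated response element (GAAA, any 2 bases, GAAA). PSMD1 and PSMG1 are the 2 members with the largest fall after nutlin-3, and PSMB8, PSMB10, PSME1 and PSME2 are the members of the interferon-responsive kind with a match to the latter motif.
PSMD1, chr2:231056617-231056916, plus strand: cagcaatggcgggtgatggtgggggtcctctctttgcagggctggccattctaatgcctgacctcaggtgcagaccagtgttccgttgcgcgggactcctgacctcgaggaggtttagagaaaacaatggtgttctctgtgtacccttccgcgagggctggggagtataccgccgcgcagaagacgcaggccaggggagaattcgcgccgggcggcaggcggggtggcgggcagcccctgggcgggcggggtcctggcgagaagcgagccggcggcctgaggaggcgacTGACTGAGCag
PSMG1, chr21:39183402-39183701, minus strand: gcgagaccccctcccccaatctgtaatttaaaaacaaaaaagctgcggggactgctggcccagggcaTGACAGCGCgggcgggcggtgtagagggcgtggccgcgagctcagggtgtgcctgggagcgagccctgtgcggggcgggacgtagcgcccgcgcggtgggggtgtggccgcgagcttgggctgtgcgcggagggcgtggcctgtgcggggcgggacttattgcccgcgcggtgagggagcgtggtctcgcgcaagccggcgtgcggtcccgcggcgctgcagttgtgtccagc
PSMB8, chr6:32843998-32844297, minus strand: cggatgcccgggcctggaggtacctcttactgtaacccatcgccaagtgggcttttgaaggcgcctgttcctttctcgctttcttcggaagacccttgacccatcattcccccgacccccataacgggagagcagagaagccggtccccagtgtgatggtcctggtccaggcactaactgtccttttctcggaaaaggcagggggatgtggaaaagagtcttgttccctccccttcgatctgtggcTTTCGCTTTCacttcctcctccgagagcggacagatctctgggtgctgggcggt
PSMB10, chr16:67936801-67937100, minus strand: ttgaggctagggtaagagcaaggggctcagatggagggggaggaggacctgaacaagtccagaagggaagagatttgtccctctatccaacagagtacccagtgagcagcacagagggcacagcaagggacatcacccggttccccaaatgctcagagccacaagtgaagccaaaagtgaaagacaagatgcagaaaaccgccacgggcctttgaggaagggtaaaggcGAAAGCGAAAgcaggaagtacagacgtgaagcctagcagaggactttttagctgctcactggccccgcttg
PSME1, chr14:24135944-24136243, plus strand: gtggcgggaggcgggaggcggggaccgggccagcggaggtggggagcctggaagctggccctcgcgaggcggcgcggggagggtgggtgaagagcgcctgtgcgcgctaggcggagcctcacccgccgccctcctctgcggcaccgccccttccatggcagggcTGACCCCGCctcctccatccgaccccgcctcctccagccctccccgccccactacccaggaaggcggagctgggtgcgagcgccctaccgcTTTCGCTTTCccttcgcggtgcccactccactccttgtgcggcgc
PSME2, chr14:24146561-24146860, minus strand: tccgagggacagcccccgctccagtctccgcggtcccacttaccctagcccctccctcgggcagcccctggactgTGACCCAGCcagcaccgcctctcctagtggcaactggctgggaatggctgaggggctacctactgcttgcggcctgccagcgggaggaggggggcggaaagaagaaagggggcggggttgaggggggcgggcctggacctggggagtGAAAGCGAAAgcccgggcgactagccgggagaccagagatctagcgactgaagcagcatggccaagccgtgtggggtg
The element core begins 39 bases after the start in PSMD1 and 183 bases before it in PSMG1. The interferon-type match begins 4 bases before the start in PSMB8, 21 before it in PSMB10, 28 before it in PSME2 and 5 after it in PSME1. Of the 51 windows of members, 15 (29.4%) held the antioxidant response element core, against 13.3% of the 35116 windows of all genes. The interferon-stimulated response element was matched in 7 windows (13.7%), against 3.57% of all. Neither motif kept to one kind of member. The interferon-type match was also in PSMA4, PSMB4 and PSMG4, and was not found in PSMB9. The antioxidant core was in 15 members, among them PSMB9, PSMC4 and PSMD5, and was not found in PSMB2 (LFC -1.22). Another PSMB8 window, not shown, held no match to any motif searched. Of the other motifs searched, the CCAAT box CCAAT was in 39.2% of member windows and 34.6% of all, the E-box CACGTG in 5.88% and 7.26%, and the cell cycle homology region TTTGAA in 13.7% and 15.2%. Overlaps between motifs were not removed, and a match is a match of letters only.

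Estimated read pairs per sample, as given by kallisto, summed to between 14455477 and 19532971 per vehicle sample and to between 15078052 and 17442896 per nutlin sample. MDM2, a p53 target, lay between 199 and 290.3 CPM (counts scaled to library size, with TMM factors) in the vehicle samples and between 4797 and 6005 CPM in the nutlin samples, so that no sample went against its label. All 10 neuroblastoma markers were measured in both groups, and MYCN had a median of 3695 CPM in the vehicle samples. Of 10 immune cell markers, CD3E was listed at 0 in all 20 samples and HLA-DRA in all vehicle samples, while CD68, CD74, ITGAM and LAPTM5 were higher after nutlin-3, at nutlin medians of 1.94 to 3.88 CPM, LCP1 was lower (LFC -0.19), and PTPRC and CD14 were not SDE. Their part in the results was not tested.

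Most proteasome genes fell after nutlin-3. Genes were called significantly differentially expressed (SDE) by the quasi-likelihood F-test of edgeR at 5% FDR, with Benjamini-Hochberg adjustment over the 27697 genes with a count in each condition, and fold changes are given as log2 fold change (LFC) of nutlin against vehicle. Of the 48 members 46 could be tested, of which 40 were SDE and lower, 1 was SDE and higher, and 5 were not SDE. By the same rule 26.5% of all genes tested were lower and 32.3% were higher. In 36 members every nutlin sample was below every vehicle sample, against 16.6% of all genes tested, and in 0 every nutlin sample was above, against 12.2%. Of the 17351 mRNAs tested 38.5% were lower, 32.4% were higher, 25.6% had all nutlin samples below and 14.5% all above. The share called lower was larger among abundant genes. Among the 9443 mRNAs with a mean of at least 10 CPM, a set chosen after the data were seen, 59.3% were lower and the median LFC was -0.24, with all nutlin samples below in 42.7% and above in 16%. Of the 42 members as abundant as that, 39 were lower, 36 had all nutlin samples below and the median LFC was -0.73. Counted whether SDE or not, an LFC below -0.5 was seen in 32 of the 46 members and in 18.3% of all genes tested. It was seen in 22.8% of mRNAs and in 30.0% of the abundant mRNAs. Counted in the same way, an LFC below -1 was seen in 9 members, in 6.69% of all genes, in 8.14% of mRNAs and in 9.48% of the abundant mRNAs. Fewer transcripts per cell and fewer cells with the transcript cannot be told apart in such bulk samples, and CPM measures a share of the library. Proteasome genes held 0.922% ± 0.044 (SD, n = 10) of all counts on protein-coding genes with ethanol and 0.633% ± 0.014 with nutlin-3, and the groups did not overlap.

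**Figure D1:**
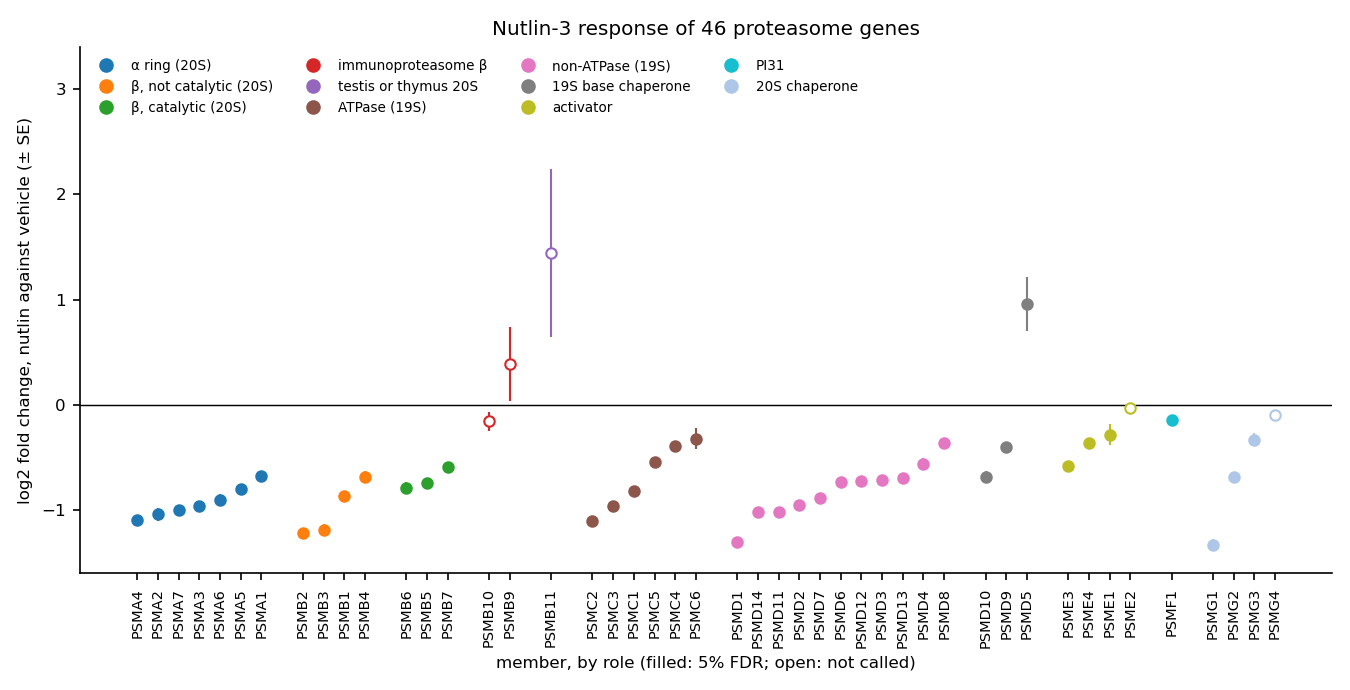
LFC of nutlin against vehicle (log2 scale, ± SE, 10 samples per group) for the 46 members tested, one point per gene, coloured by role and filled where SDE at 5% FDR. The α, β, ATPase and non-ATPase subunits of the constitutive 26S proteasome lie between -0.32 and -1.30, while PSMB9, PSMB10, PSMB11, PSME2 and PSMG4 are open points and PSMD5 is the 1 filled point above 0.

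All 31 subunits of the constitutive 26S proteasome, 14 of the 20S core and 17 of the 19S particle, were lower after nutlin-3. Their median LFC was -0.81, that of the core -0.89 and that of the particle -0.73. In 30 of the 31 every nutlin sample was below every vehicle sample. The exception was PSMC6, with 45.9 to 77.5 CPM in the vehicle and 31.5 to 58.8 CPM in the nutlin samples (LFC -0.32 ± 0.10 (SE), adjusted p = 0.00609 in edgeR's quasi-likelihood test).

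The 7 genes of the α ring, which gates the barrel, had LFCs between -0.67 (PSMA1) and -1.09 (PSMA4). PSMA4 lay between 231 and 323 CPM (median 259) in the vehicle samples and between 109 and 142 CPM (median 122) in the nutlin samples. The groups did not overlap, and the LFC was -1.09 ± 0.05 (edgeR adjusted p = 1.37e-17). PSMA7, which had the highest level of the ring, had an LFC of -0.99, from 512 ± 27.1 to 258 ± 8.87 TPM (a level per transcript length, mean ± SD, n = 10). The 4 β subunits without an active site had LFCs of -0.68 for PSMB4, -0.87 for PSMB1, -1.19 for PSMB3 and -1.22 for PSMB2. PSMB2 lay between 382 and 484 CPM (median 418) in the vehicle samples and between 169 and 194 CPM (median 181) in the nutlin samples (edgeR adjusted p = 6.07e-22). The groups were far from overlapping.

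The 3 constitutive catalytic subunits had a median LFC of -0.75, beside -1.03 for the other 4 of the ring, a difference that was not tested. PSMB5 (chr14:23016543-23035230 in GRCh38), which carries the chymotrypsin-like site and is the main target of bortezomib, lay between 239 and 342 CPM (median 277) in the vehicle samples and between 154 and 192 CPM (median 161) in the nutlin samples, an LFC of -0.75 ± 0.05. PSMB6, the caspase-like subunit, lay between 157 and 227 CPM (median 182) and between 94.7 and 112 CPM (median 106), an LFC of -0.79 ± 0.05. PSMB7, the trypsin-like subunit, lay between 214 and 301 CPM (median 248) and between 151 and 192 CPM (median 162), an LFC of -0.59 ± 0.05. All vehicle samples were above all nutlin samples for each of the 3 genes, and the largest of the 3 edgeR adjusted p-values was 2.36e-11.

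The 6 ATPases, which form the motor at the base of the 19S particle, ranged from -0.32 (PSMC6) and -0.39 (PSMC4) to -1.10 (PSMC2). PSMC2 lay between 138 and 192 CPM (median 155) in the vehicle samples and between 61.8 and 78.6 CPM (median 73.1) in the nutlin samples (LFC -1.10 ± 0.05, edgeR adjusted p = 7.44e-18). No sample of one group reached the other. The 11 non-ATPase subunits had LFCs from -0.36 (PSMD8) to -1.30 (PSMD1). PSMD1, a scaffold of the base to which substrate receptors dock, lay between 293 and 342 CPM (median 317) in the vehicle samples and between 121 and 139.6 CPM (median 128) in the nutlin samples, with an LFC of -1.30 ± 0.03 and the smallest adjusted p of all members (4.57e-24 in edgeR). PSMD14 (-1.02), the deubiquitinase of the lid, and PSMD11 (-1.02), a scaffold of the lid, also fell below -1. PSMD4 (-0.56), a ubiquitin receptor, fell less, and PSMD2 (-0.95), the other large scaffold of the base, lay between them.

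Levels per transcript length spread widely within both particles. In the 20S core the mean TPM of the vehicle samples ranged from 91.2 for PSMA5 to 640.0 for PSMB4, a 7.01-fold span, and in the nutlin samples from 49.9 to 395, a 7.91-fold span, with the same genes at both ends. In the 19S particle the span was 6.09-fold, from PSMD12 at 60.3 to PSMC1 at 367 TPM, and 6.68-fold after nutlin-3, from PSMD12 at 38.5 to PSMD8 at 257 TPM. The median of the core genes was 308 TPM with ethanol and 160.3 TPM with nutlin-3, and that of the 19S genes 137 and 83.5 TPM. Across the 31 genes, LFC was weakly related to the effective length (Spearman's rho -0.164) and to the vehicle TPM (rho -0.0448), values that are across genes of the same libraries.

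**Figure D2:**
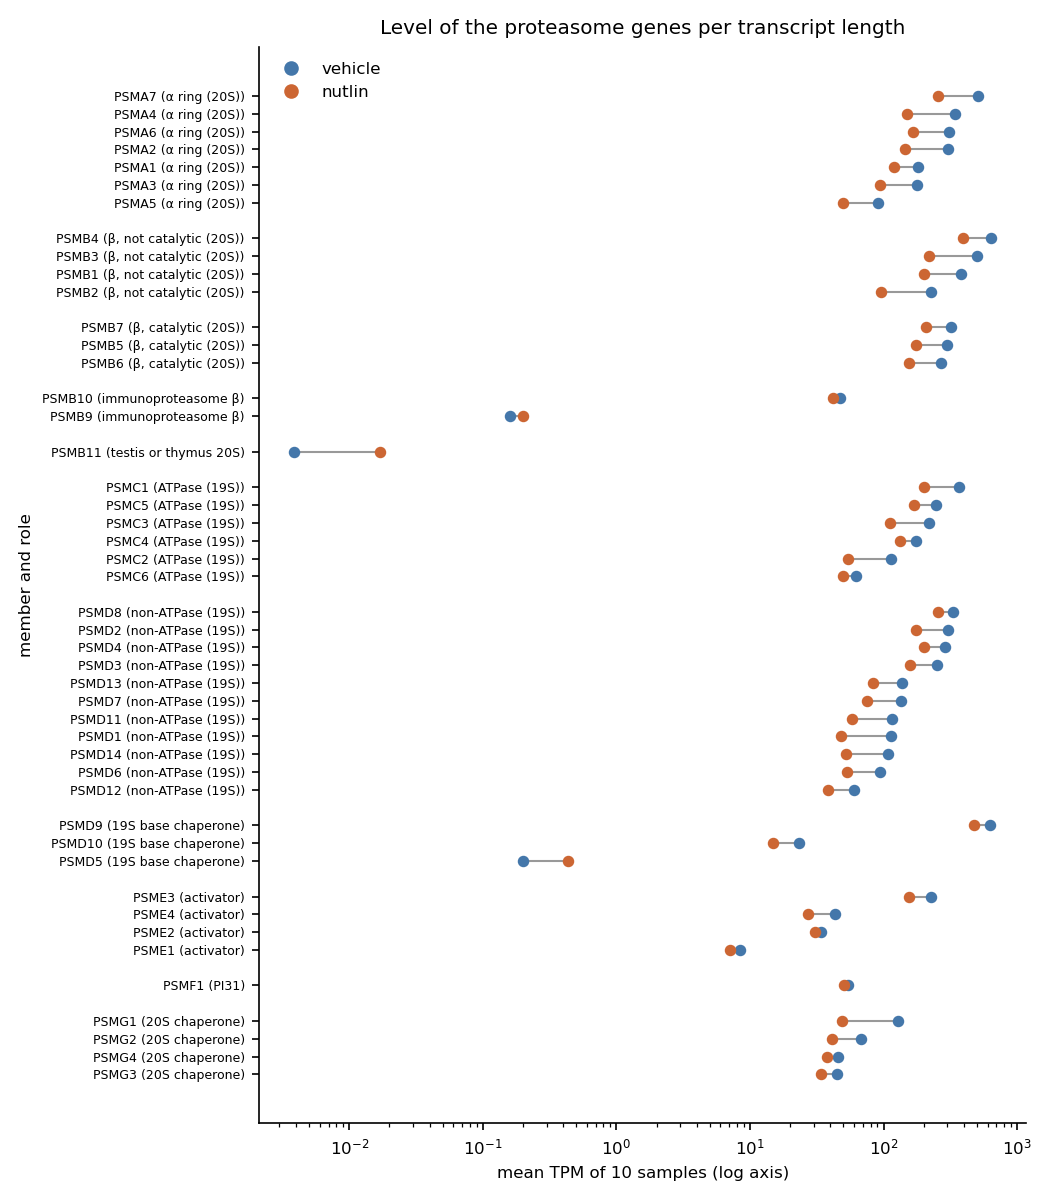
Mean TPM of 10 vehicle (blue) and 10 nutlin samples (orange) on a log axis for the 46 members with a value above 0, grouped by role, with a line between the pair of each gene. Constitutive subunits lie between 38.5 and 640.0 TPM, PSMB10 at 47.6 and 41.8 TPM, and PSMB9, PSMB11 and PSMD5 below 1 TPM.

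None of the 3 immunoproteasome subunits was SDE. Only PSMB9 and PSMB10 could be tested. PSMB8 (chr6:32840717-32844679 in GRCh38), which replaces PSMB5, was listed at 0 in all 20 samples and could not be tested. A count of 0 allows up to 3 counts per library, which at the mean effective length of its transcripts is 0.0598% to 0.132% of the PSMB5 level in the same sample (this limit covers counting error only). PSMB9 (chr6:32844136-32859851), which replaces PSMB6, held 57 counts over the vehicle samples and 77 over the nutlin samples, at 0 to 0.781 CPM (median 0.316) and 0.0657 to 0.987 CPM (median 0.489), which overlap (LFC 0.39 ± 0.35, edgeR adjusted p = 0.36). All its counts were on PSMB9-210, a retained-intron transcript, and none were on a protein-coding transcript. A value near 0 needs care in these files, since PSMD5 and the ubiquitin gene UBB, which cells commonly use, were also below 1 CPM in every sample.

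PSMB10 (chr16:67934506-67936864), which replaces PSMB7, was the 1 immunoproteasome subunit with a substantial level. It lay between 15.4 and 26.6 CPM (median 20.9) in the vehicle samples and between 15.8 and 24.7 CPM (median 17.4) in the nutlin samples, with overlap of the groups, and was not SDE (LFC -0.15 ± 0.09, edgeR adjusted p = 0.146). Without nutlin replicate 6, its highest nutlin sample, the LFC was -0.19 and the adjusted p was 0.0499. Its TPM as a share of that of PSMB7 was 11.9% to 17.1% (median 15.3%) in the vehicle samples and 17.9% to 23.3% (median 19.4%) in the nutlin samples, and the groups did not overlap. The log2 ratio was higher by 0.42 after nutlin-3, from -2.75 ± 0.16 to -2.33 ± 0.12 (SD, n = 10), with PSMB7 lower and PSMB10 not SDE. Nearly all of the PSMB10 signal was on transcripts not annotated as coding. Retained-intron transcripts held 97.2% ± 1.74 (SD, n = 10) of the PSMB10 counts with ethanol and 93.8% ± 2.44 with nutlin-3. Counted on protein-coding transcripts only, PSMB10 had 0.566 and 1.12 CPM on average and an LFC of 0.95 ± 0.28 (edgeR adjusted p = 0.00407), and its TPM was 0.395% and 1.03% of that of PSMB7. PSMB10 also overlaps another protein-coding gene on the same strand (ENSG00000261884), so that reads shared by both may have been split between them.

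**Figure D3:**
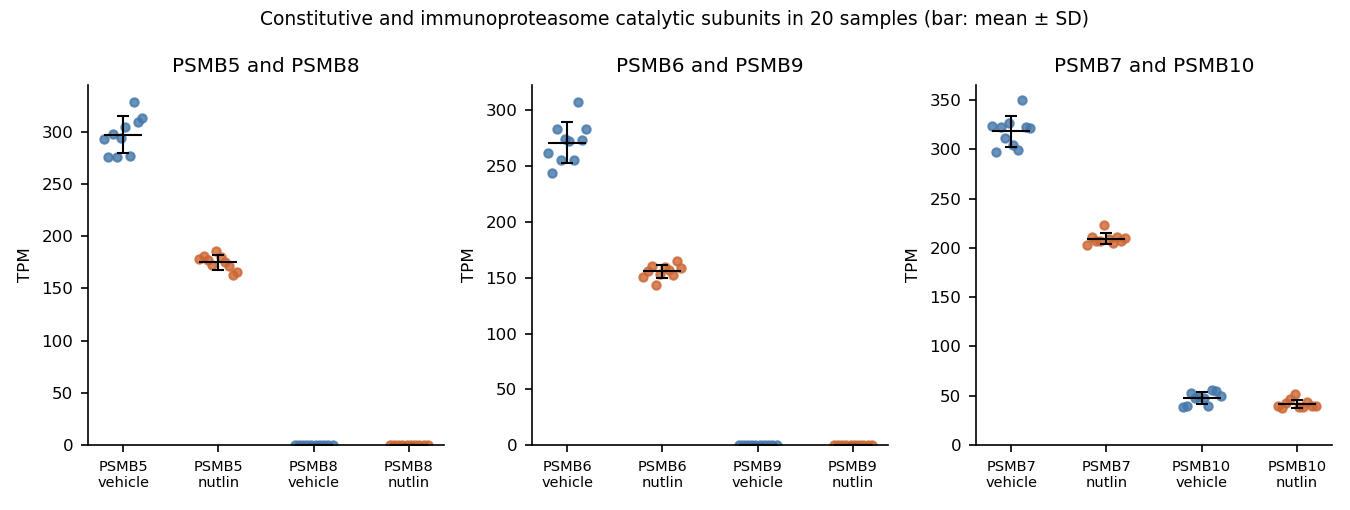
TPM of each constitutive catalytic subunit and of the immunoproteasome subunit that replaces it, one point per sample, with the mean ± SD of 10 vehicle (blue) and 10 nutlin samples (orange). PSMB5, PSMB6 and PSMB7 lie lower in all nutlin samples, PSMB8 is at 0 and PSMB9 at most 0.369 TPM in all 20 samples, and PSMB10 lies between 37.8 and 55.7 TPM.

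Of the 4 activators 3 were lower, and their median LFC was -0.32. PSME3, a nuclear activator that works without ubiquitin, was the most abundant of them per length (226 ± 9.07 TPM with ethanol and 155 ± 10.4 TPM with nutlin-3, SD, n = 10). It lay between 383 and 446 CPM (median 404) in the vehicle samples and between 254 and 300.4 CPM (median 265) in the nutlin samples, with no overlap and an LFC of -0.58 ± 0.04 (edgeR adjusted p = 3.36e-14). PSME4, which acts on histones, lay between 175 and 198 CPM (median 183) and between 127 and 155 CPM (median 144), also without overlap (LFC -0.36 ± 0.03, edgeR adjusted p = 8.04e-11).

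The interferon-responsive pair PSME1 and PSME2 had smaller LFCs. PSME1 lay between 4.56 and 8.69 CPM (median 7.20) in the vehicle samples and between 4.51 and 7.16 CPM (median 5.52) in the nutlin samples, groups that overlap (LFC -0.28 ± 0.10, edgeR adjusted p = 0.0207), and the call was lost with the size factors of DESeq2 (adjusted p = 0.0521). PSME2 lay between 21.5 and 28.6 CPM (median 23.2) and between 20.8 and 27.1 CPM (median 22.8), an LFC of -0.03 ± 0.05 (edgeR adjusted p = 0.636), whose sign changed with the size factors. The genes encode subunits of the same ring, and PSME2 was at 33.9 ± 2.71 TPM and PSME1 at 8.49 ± 1.39 TPM in the vehicle samples. PSMF1, or PI31, which binds the core and inhibits it in vitro, lay between 65.9 and 75.6 CPM (median 72.2) and between 62.8 and 66.9 CPM (median 64.4), with a slight overlap and an LFC of -0.14 ± 0.03 (edgeR adjusted p = 0.000206).

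Of the assembly chaperones, 3 of 4 for the core and 2 of 3 for the 19S base were lower. PSMG1, which with PSMG2 starts the α ring, had the largest fall of all members: it lay between 73.4 and 99.4 CPM (median 84.7) in the vehicle samples and between 31.2 and 40.4 CPM (median 34.7) in the nutlin samples (LFC -1.33 ± 0.05, edgeR adjusted p = 3.91e-19). PSMG2 fell by 0.69 and PSMG3 by 0.33 on the log2 scale, and PSMG4, the partner of PSMG3, was not SDE at -0.10 ± 0.05 (without nutlin replicate 6, LFC -0.12 and edgeR adjusted p = 0.0473). PSMD9 and PSMD10, chaperones of the 19S base, had LFCs of -0.40 and -0.69. PSMD10, also known as gankyrin, lay between 23.7 and 31.9 CPM (median 26) in the vehicle samples and between 14.9 and 20.7 CPM (median 16.3) in the nutlin samples. PSMD5, another such chaperone, was the 1 member called higher (LFC 0.96 ± 0.26, edgeR adjusted p = 0.00175) but lay between 0.138 and 0.47 CPM in the vehicle and between 0.308 and 0.878 CPM in the nutlin samples, 46 and 93 counts in all. The call was lost with the replicate block (LFC 0.75, edgeR adjusted p = 0.0674; 0.0304 in the same 16 samples without the block), and PSMD5 was not among the genes kept by edgeR's filterByExpr. It is below the level set for named genes and is given because it is the 1 call in that direction. PSMA8, a testis subunit, was listed at 0 in all 20 samples, and PSMB11, a thymus subunit, held 1 and 5 counts in the 2 groups.

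Some of these values rest on transcripts that are not annotated as coding. Over all members, 84.8% ± 0.35 (SD, n = 10) of the counts were on protein-coding transcripts in the vehicle samples and 81.3% ± 0.30 in the nutlin samples. For PSMA5 the share was 7.51% and 13.2%, since PSMA5-204, a transcript with no defined coding sequence, held 73.3% and 66.6% of its counts. For PSMD13 it was 5.27% and 9.27%, with PSMD13-202, a nonsense-mediated decay transcript, holding 53.3% and 48.7%. On protein-coding transcripts only, PSMA5 had an LFC of 0.04 ± 0.13 and PSMD13 one of 0.10 ± 0.37, and neither was SDE. The other 29 constitutive 26S subunits stayed SDE and lower in that count, and in 27 of the 31 the LFC was below that on all transcripts, with a median of -0.86. PSMG1 kept an LFC of -1.20, with 38.7% and 42.0% of its counts on protein-coding transcripts.

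The share of counts on retained-intron transcripts was larger after nutlin-3. It was 4.66% ± 0.28 (SD, n = 10) over all members in the vehicle samples and 7.20% ± 0.42 in the nutlin samples, with ranges of 4.17% to 5.12% and 6.48% to 8.02% that do not overlap. Over all protein-coding genes it was 5.61% ± 0.14 and 6.85% ± 0.20. Among the 32 members with such a share of at least 1% in a group and a mean of at least 100 counts in both, every nutlin sample was above every vehicle sample in 11 (34.4%) and the reverse held in 0, against 7.97% above among the 4869 protein-coding genes with such shares. The 4869 genes were not matched to the members for abundance, and an effect of abundance on these percentages was not tested. No test was made of these shares.

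These 11 members were PSMA1, PSMA2, PSMA3, PSMA4, PSMC4, PSMC5, PSMD2, PSMD3, PSMD6, PSMD9 and PSMD13, which are named because of their values. The share in PSMC4 was 14.3% ± 2.78 with ethanol and 26.2% ± 3.32 with nutlin-3. In PSMA3 it was 10.2% ± 2.40 and 21.1% ± 2.88, and in PSMD6 11.4% ± 0.75 and 19.3% ± 2.08. The mean levels on these and on the protein-coding transcripts are given without a test. In PSMA3 the retained-intron transcripts had 13.6 and 14.4 CPM and the protein-coding transcripts 118 and 52.6 CPM. In PSMD6 they had 13.0 and 13.2 CPM against 101 and 55.5 CPM. In PSMC4 the former had 33.2 and 46.6 CPM and the latter 199.5 and 131 CPM, and the LFC of PSMC4 was -0.39 on all transcripts and -0.61 on the protein-coding ones. In PSMC1 the share was 21.1% in both groups.

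**Figure D4:**
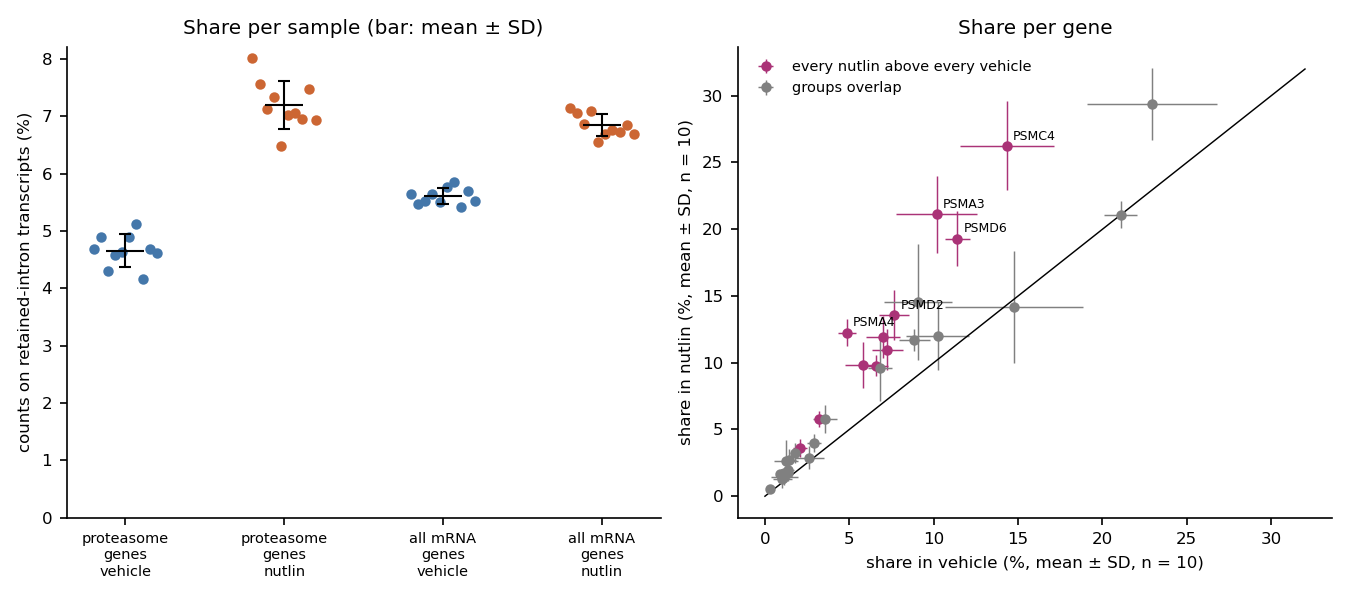
Left, percentage of counts on retained-intron transcripts for the proteasome genes together and for all protein-coding genes together, one point per sample with mean ± SD; the proteasome genes went from 4.66% to 7.20%. Right, the same percentage for each member (mean ± SD, n = 10) in the nutlin against the vehicle samples, with the line of equality, and PSMC4, PSMA3, PSMD6, PSMD2 and PSMA4 labelled far above it; PSMB10, above 90% in both groups, is left out.

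Genes that work with the proteasome were read from 5 lists of 61 genes in all, of which 31 were lower, 17 were higher and 13 were not SDE, beside 26.5% lower and 32.3% higher among all genes tested and 59.3% lower among the abundant mRNAs. These shares of the background apply to each list below. All 12 proteasome partners were lower, 9 of them without overlap of the groups, with a median LFC of -0.39. POMP, the chaperone that matures the 20S core, lay between 133 and 192 CPM (median 151) in the vehicle samples and between 60.3 and 85.9 CPM (median 66.4) in the nutlin samples, an LFC of -1.17 ± 0.06. SEM1, a small 19S subunit without a PSM name, had an LFC of -0.89, from a vehicle median of 165 to a nutlin median of 90.5 CPM. UCHL5, a deubiquitinase docked on the 19S particle, had one of -0.93, from 94.7 to 50.1 CPM.

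Of the 10 genes of the NFE2L1 pathway 5 were higher, 1 was lower and 4 were not SDE. NFE2L1 itself lay between 155 and 183 CPM (median 166) in the vehicle samples and between 166 and 185 CPM (median 178) in the nutlin samples (LFC 0.08 ± 0.03, edgeR adjusted p = 0.0393, or 0.0531 with the replicate block). NFE2L2, its relative NRF2, was higher by an LFC of 0.57 ± 0.05, from a median of 45.1 to one of 68.2 CPM without overlap. SYVN1, a ligase of the endoplasmic reticulum, had an LFC of 0.24 ± 0.04, and VCP, the segregase that delivers substrates to the proteasome and extracts NFE2L1 from the membrane, fell by 0.58 on the log2 scale, from a median of 616 to one of 418 CPM.

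Of the 12 genes of ubiquitin and its shuttles 9 were lower, 2 were higher and 1 was not SDE. The shuttle factors RAD23B (LFC -0.79 ± 0.03) and UBQLN1 (-0.76 ± 0.03), which carry tagged proteins to the 19S receptors, each had all nutlin samples below all vehicle samples. Medians went from 296 to 171 CPM for RAD23B and from 298 to 176 CPM for UBQLN1.

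Of the 15 genes of class I peptide loading 6 were higher, 4 were lower and 5 were not SDE, counts that were not tested against the shares of 32.3% and 26.5% over all genes. B2M, the light chain of class I, lay between 128 and 194 CPM (median 156) in the vehicle samples and between 47.8 and 61.9 CPM (median 52.1) in the nutlin samples, an LFC of -1.52 ± 0.06. PDIA3, a member of the loading complex, had an LFC of -0.94 ± 0.04, from a median of 349.9 to one of 186 CPM. HLA-C was higher by an LFC of 3.62 ± 0.23 but only from 0.0664 to 0.64 CPM up to 1.78 to 4.59 CPM, and class I genes share reads with each other. TAP1 and TAP2, the peptide transporter next to PSMB8 and PSMB9, had at most 0.344 and 0.175 CPM in any sample and were not SDE. Of the 12 interferon pathway genes 4 were higher, 5 were lower and 3 were not SDE. IFNGR2, a chain of the interferon gamma receptor, had an LFC of -0.78 ± 0.05 (medians of 29.6 and 17.9 CPM). IRF1, which binds interferon-stimulated response elements, had one of 0.59 ± 0.13, from a median of 1.46 to one of 2.16 CPM.

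**Figure D5:**
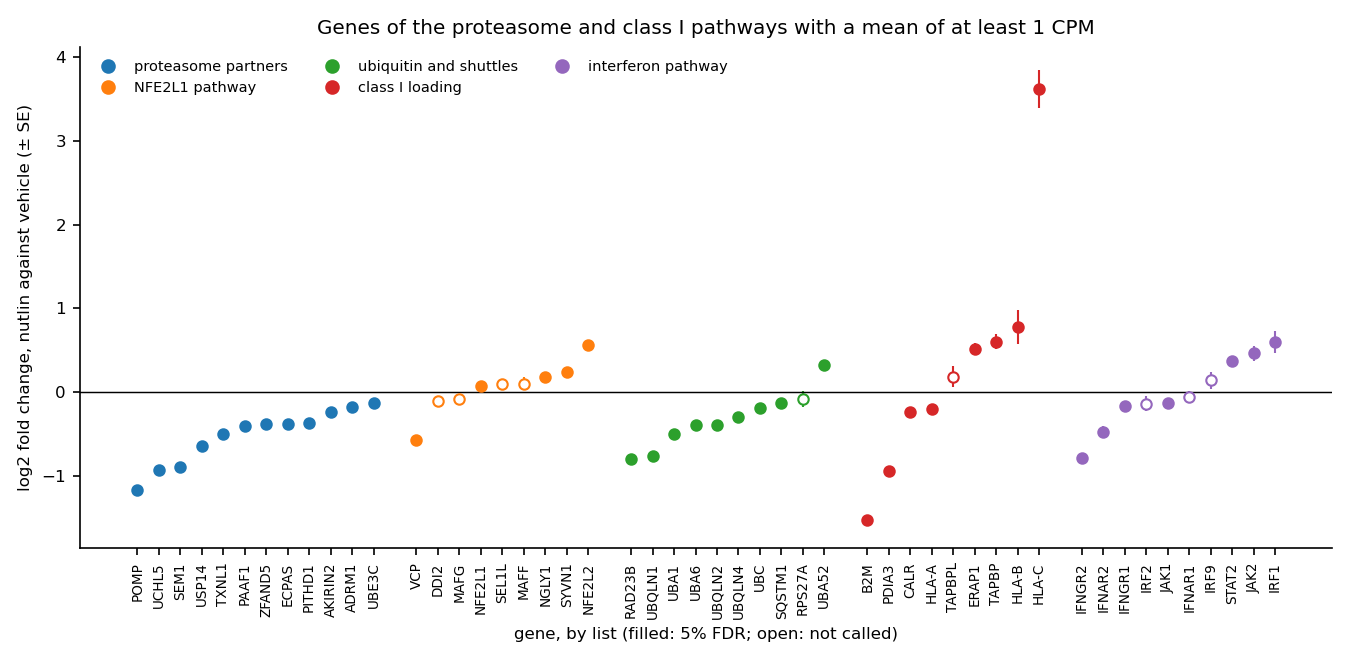
LFC of nutlin against vehicle (log2 scale, ± SE, 10 samples per group) for the reported genes of the 5 lists with a mean of at least 1 CPM, filled where SDE at 5% FDR. All 12 proteasome partners lie below 0, from POMP at -1.17 to UBE3C at -0.13, while the class I list spans B2M at -1.52 to HLA-C at 3.62.

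One library stood apart among the vehicle samples. Vehicle replicate 10 was the highest of its group for 35 of the 40 members called lower, and vehicle replicate 9 the lowest for 24. Over all 40, the log2 deviation of vehicle replicate 10 from its group was 0.23 on average. Among the 31 constitutive 26S subunits this deviation of replicate 10 was larger for shorter transcripts (Spearman's rho -0.702 with effective length, across genes). Nutlin replicate 6 was the highest of its group for 22 of the 40. Without vehicle replicate 10 all 40 were still called lower and the median LFC of the 46 members went from -0.70 to -0.67, and without nutlin replicate 6 all 40 were called lower among 42 in all.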

How the data were processed

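RNA-seq of 20 samples of NGP cells was read from the processed files. Per the labels and the study's methods, stranded poly(A) libraries were sequenced as read pairs and the authors quantified them with kallisto 0.42.4 on Ensembl transcripts of GRCh38. Whether kallisto used the strand is not given in the sources used here, so that reads of members and of genes overlapping them on the other strand may not have been told apart. For each of 198968 transcripts the authors deposited an estimated count (read pairs, not normalized), a TPM value (scaled by effective length and library size) and an effective length in bases.

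Transcripts were assigned to genes by identifier with GENCODE release 44 (191106 matched, 96.0% of identifiers, and 7862 were left out). The estimated counts were summed per gene and rounded. Matched transcripts held 96.66% to 96.78% of the counts in the vehicle samples and 95.71% to 95.95% in the nutlin samples, without overlap. Any reads of members on the transcripts left out are not counted here, and their part in the results was not tested. GENCODE coordinates are those of GRCh38. Differential expression was tested with edgeR 4.0.16 under R 4.3.3 (quasi-likelihood, F statistic) with TMM scaling and condition as the only term, over the 27697 protein-coding and lncRNA genes in which each condition summed to 1 count or more, and LFC is given with SE = |LFC| divided by the square root of F. CPM values are scaled by TMM. TPM was used for levels between genes and for the ratio of catalytic subunits, without a test, and no columns were left unused for lack of a sample. Alternatives used DESeq2 1.42.0 and limma 3.58.1. The calls were tested on simulated counts with 200 changed genes, as many raised as lowered. Many more genes were SDE in the data (8935 higher and 7340 lower). The simulation therefore cannot check the TMM scaling under changes of that extent. Summaries used pandas 2.3.3 under Python 3.11.15, and figures used matplotlib 3.10.9. Read pairs are not independent molecules, and for members below 1 CPM counting error dominates.

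The members and lists were chosen with earlier results of these data known. Values by sample are given for the catalytic, immunoproteasome and activator subunits and PSMF1, for the called member with the largest LFC in each direction in each other role where its mean reached 1 CPM, and for the 3 called genes of each list with the largest absolute LFC under the same condition. Of 44 pseudogenes of 17 members, only those of PSMC1 together held more than 5% of the counts of the gene they copy. Some genes of the lists are counted in the totals but are not reported here by name.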

Additional observations from a re-analysis of the deposited data

Results flagged for a closer look

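Of the 121 groups of 10 samples tested by Dixon's criterion on log2 CPM, 18 had a highest or lowest sample far from the others, where chance gives about 1 in 20, or 6. In vehicle replicate 10 there were 7 such values, all the highest of their group: PSMA3 at 161 CPM (next sample 139), PSMA7 at 496 (422), PSMD4 at 389 (329), PSMD6 at 130.3 (117), PSMD8 at 382 (329.0), PSMD14 at 219.0 (192) and PSME2 at 28.6 (23.9). In nutlin replicate 6 there were 6, also the highest of their group: PSMA2 at 170.5 CPM (145), PSMA6 at 165.5 (146.0), PSMB7 at 192 (171), PSMB10 at 24.7 (19.9), PSMD9 at 484 (443) and PSMD10 at 20.7 (17.1). PSMC4 was highest in nutlin replicate 3 at 188 CPM (179).

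The other 4 were the lowest of their group. PSMC6 was at 31.5 CPM in nutlin replicate 2 (next sample 43.1), PSMB9 at 0.0657 CPM in nutlin replicate 11 (0.258), NFE2L2 at 53.0 CPM in nutlin replicate 4 (63.1) and SYVN1 at 29.8 CPM in vehicle replicate 4 (33.1). These values share libraries and are not independent of each other.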

How the results depend on the processing

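Over all settings 39 to 42 members were called lower (40 in the report). The number called higher (1 in the report) was 0 with edgeR's filterByExpr, 0 with the replicate block (PSMD5 in both) and 2 with only protein-coding transcripts of members. On protein-coding transcripts the LFC of PSMB10 became 0.95, that of PSMA5 0.0394 and that of PSMD13 0.0998. That of PSME2 became 0.0164 with DESeq2 size factors, 0.0168 in DESeq2, 0.0462 with filterByExpr and 0.0165 without vehicle replicate 10, and it was called lower with an effective length offset (-0.19) and on protein-coding transcripts (-0.17). It was -0.0452 without nutlin replicate 6. PSME1 lost its call with size factors, in DESeq2, with filterByExpr (-0.20), with the replicate block (-0.19) and in the same 16 samples without the block (-0.20). The causes were not tested. The runs without 1 library, on protein-coding transcripts and on the 16 samples were chosen after seeing the data. Log2 ratios of PSMB8 to PSMB5 and PSMB9 to PSMB6 had no value without a pseudocount because libraries were at 0, and with 0.1 TPM added they were higher after nutlin-3 by 0.76 and 1.04, PSMB8 being at 0 throughout.

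For each of 15168 genes, the log2 CPM of a sample was taken as its deviation from the mean of its group. These deviations were hardly correlated between vehicle and nutlin samples that share a replicate number. Values ran from -0.0365 to 0.0711, and 1 of 8 vehicle samples correlated best with its own number. The mean was 0.00893, beside -0.000749 for samples of other numbers. The labels do not say whether samples were handled in pairs, and these correlations cannot decide it. The replicate block gave 7555 genes higher and 6760 lower, and the same 16 samples without it gave 8196 and 6917. Depth limits members below 1 CPM.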
